A study of Sus scrofa with 4 samples.

Results

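The genes described here encode the machinery that brings proteins into mitochondria, cuts and folds them, joins and divides the organelles, and maintains their DNA. They were taken from a pig microarray as every probe whose gene symbol starts with TOMM or TIMM, or is 1 of 32 listed symbols. Of the 42 symbols that result, 30 had at least 1 probe, and 29 of these were measured above background, out of 7344 named genes measured in all. The 29 genes had 63 of the 25899 probes measured above background. They were split by role into 13 genes of import, 5 of processing and quality control, 4 of fusion and fission, 4 of mitochondrial DNA upkeep, and 3 listed genes outside these roles.

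RNA came from porcine expanded blastocysts that had been kept from the zygote stage for 7 days in sealed glass vials of PZM3, a pig embryo culture medium. One group had 0.2% ethanol in the medium and the control group had none. Each of 4 2-colour arrays held a pool of 10 ethanol-exposed blastocysts and a pool of 10 control blastocysts, after 2 rounds of RNA amplification, with ethanol RNA in Cy5 on arrays 1 and 3 and in Cy3 on arrays 2 and 4. The embryos measured are those that reached this stage, and the labels do not say whether the pools came from separate cultures, so p-values measure the spread between these pools only.

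Nearly all mitochondrial proteins are made in the cytosol and threaded through the TOM complex of the outer membrane and the TIM complexes of the inner membrane. Peptidases then remove targeting sequences, chaperones and proteases control folding, and membrane-remodelling GTPases fuse and divide the organelles. The mammalian embryo starts with mitochondria inherited from the oocyte, and blastocyst formation draws on their energy supply.

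No gene of the group passed the adjustment for multiple testing, and no other probe did. MIPEP, which encodes a peptidase of the matrix, GFER, which encodes a sulfhydryl oxidase of the intermembrane space, and TOMM34 had the 3 smallest p with lower values in ethanol-exposed blastocysts. OPA1, which encodes a fusion GTPase, LONP1, which encodes a matrix protease, and VDAC1, which encodes an outer membrane channel, had the smallest p with higher values. These 6 of 29 genes (20.7%) were at an unadjusted p under 0.05, 3 in each direction, against 9.03% of all named genes, 4.83% higher and 4.19% lower. The remaining 23 did not reach that p, and the median log2 ratio of ethanol over control was 0.01 over the group against -0.00 over all named genes. MIPEP and OPA1 had been named by earlier results of these data, and the members were chosen with those results known. The 20.7% and the 9.03% are therefore a description, and their difference was not tested. With all probes of a gene averaged, the shares were 10.3% and 8.48%. Individual genes ranged from -0.49 to 0.30, 15 above 0 and 14 below, and the median size of the difference was 0.12 on the log2 scale against 0.07 over all named genes. In pooled whole embryos, fewer cells of a type and less RNA per cell cannot be told apart.

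These log2 ratios come from a limma fit with a term for the dye, and a gene stands on its brightest measured probe. After Benjamini-Hochberg adjustment of limma's p-values across the 25899 probes, 0 (0%) were under 0.05 and the smallest adjusted p was 0.511, while 1883 (7.27%) had an unadjusted p under 0.05. Ratios of single arrays are given before the dye term is taken out, so a probe that favours 1 dye reads differently on arrays 1 and 3 than on arrays 2 and 4. By that measure 7 of the 29 genes (24.1%) had the same sign on all 4 arrays, against 10.3% of all named genes. The median size of the dye coefficient was 0.08 in the group and 0.13 over all named genes. A smaller dye coefficient makes 1 sign on all arrays easier to keep, and its part in these shares was not tested. With 4 arrays, an exact sign-flip test of a single gene cannot go below p = 0.125 (two-sided).

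**Figure D1:**
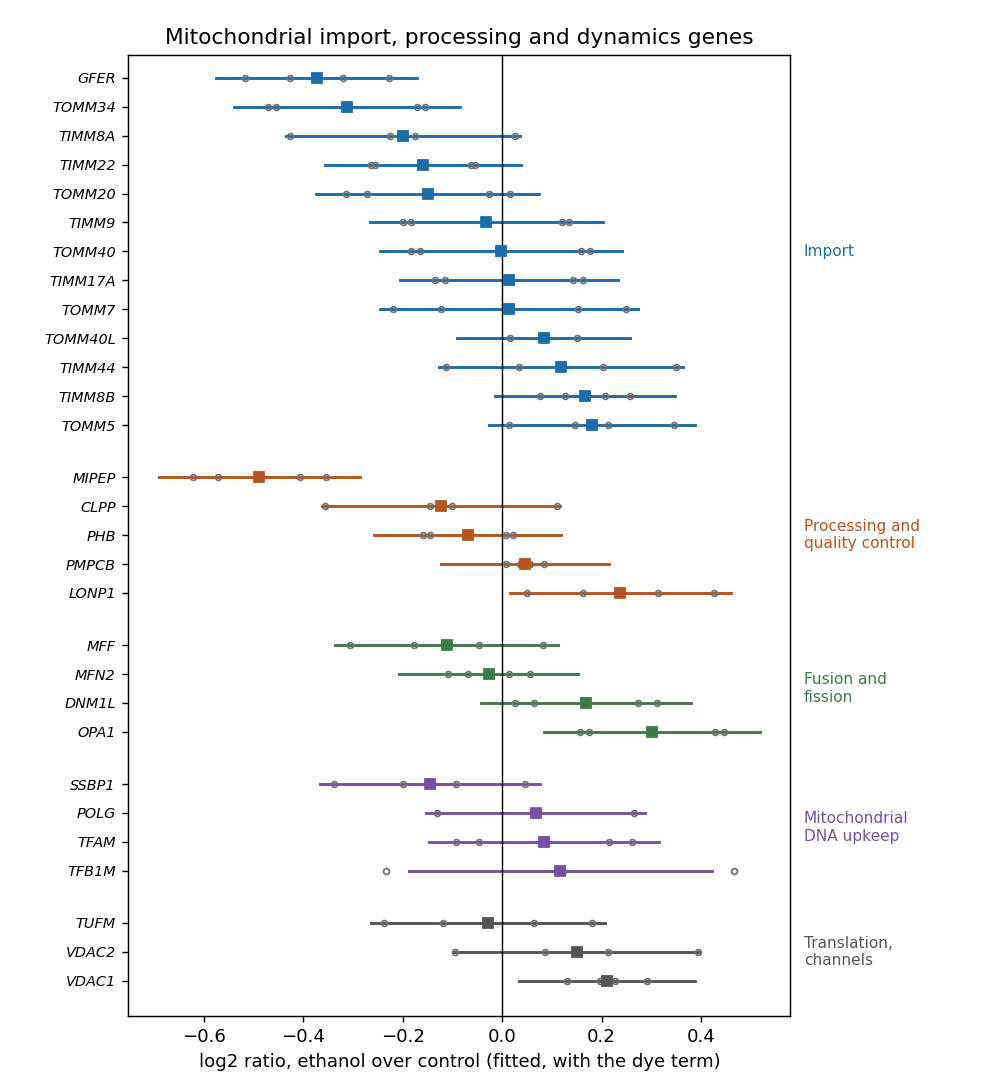
Fitted log2 ratio of ethanol over control (squares) with its 95% confidence interval (lines) for the 29 measured genes, by role, and the ratio on each of the 4 arrays with the dye term removed (open circles). Intervals lie wholly below 0 for MIPEP, GFER and TOMM34 and wholly above 0 for OPA1, LONP1 and VDAC1, while the other 23 include 0.

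**Figure D2:**
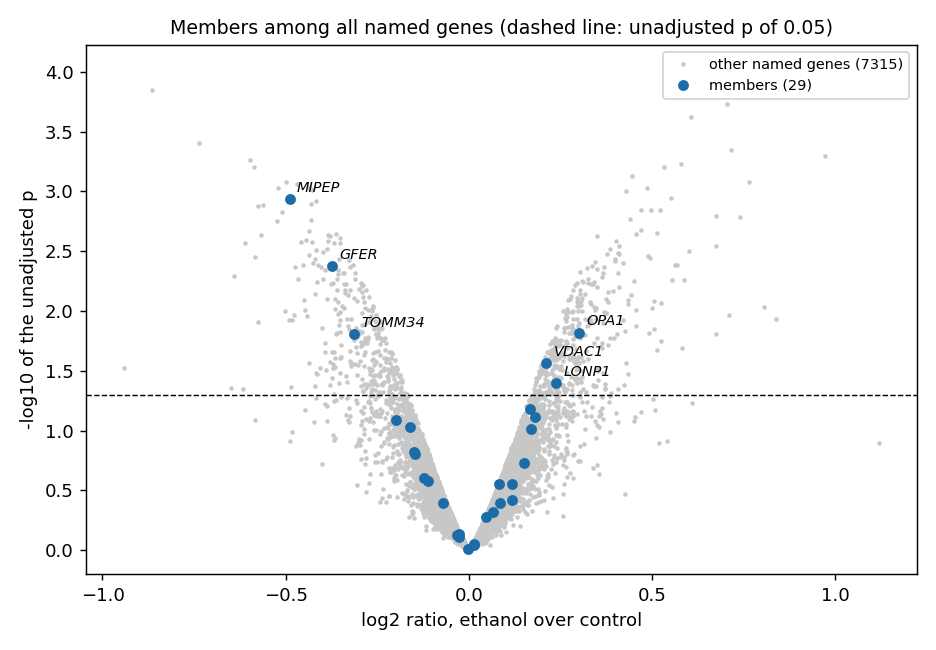
Log2 ratio (horizontal axis) against the −log10 of the unadjusted p (vertical axis) for the 29 genes (blue) and the other 7315 named genes (grey). The dashed line marks the threshold of 0.05, and MIPEP and GFER lie highest of the 6 blue points above it.

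Among the 13 import genes, the median log2 ratio was -0.00, with 6 above 0 and 7 below and a range from -0.37 to 0.18. Leaving out 1 array moved this median between -0.09 (without array 3) and 0.08 (without array 4). The gene of smallest p was GFER, whose product (Erv1 in yeast) reoxidises the receptor that folds small cysteine-rich proteins in the intermembrane space. On its brightest probe GFER had a normalized log2 intensity of 10.21, 9.37, 9.80 and 9.32 in the ethanol pools of arrays 1 to 4 and of 10.45, 9.79, 10.33 and 9.63 in the control pools. Each ethanol pool was below the control pool of its own array, although the ranges of the ethanol and control pools overlap. The ratios on the 4 arrays were -0.24, -0.42, -0.53 and -0.31, and the fitted log2 ratio was -0.37 (SE 0.08, 95% interval -0.57 to -0.17), a 1.30-fold difference. Its unadjusted p was 0.0042 and its adjusted p by limma 0.511, the rank of 81 among 7344 genes.

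All 3 GFER probes had negative fitted values, at -0.37, -0.24 and -0.21, and each had an unadjusted p under 0.05. Before the dye term, the dimmer probes were not below 0 everywhere, with 0.01 and 0.16 on array 1. GFER remained at an unadjusted p under 0.05 in each of the 14 other settings tried, from 0.0024 to 0.0244.

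TOMM34 is counted by its symbol, but its product is mainly a cytosolic cochaperone of HSP70 and HSP90 rather than a part of the TOM complex. Its brightest probe had ratios of -0.14, -0.47, -0.45 and -0.19 on arrays 1 to 4, all below 0, and a fitted log2 ratio of -0.31 (SE 0.09, interval -0.54 to -0.09), a 1.24-fold difference with an unadjusted p of 0.0155 and an adjusted p of 0.570 by limma. Of its 7 probes 5 were above background, and the other 4 lay between -0.06 and 0.13. Their mean log2 intensities were 6.77 to 7.22, against 10.6 for the brightest. The probe at 0.08 was above background in ethanol RNA on 2 arrays and in control RNA on 3, near the limit of detection. With its probes averaged TOMM34 stood at -0.04, so the difference rests on the brightest probe. Its unadjusted p was also not under 0.05 without array 2 (0.0793) or without array 3 (0.0803).

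The small subunits of the TOM complex were read by 1 probe each. TOMM5 had ratios of 0.06, 0.10, 0.40 and 0.16 on arrays 1 to 4 and a fitted value of 0.18 (unadjusted p = 0.0776), all 4 above 0 without reaching the threshold. TOMM7 was at 0.01. The receptor TOMM20 had -0.15 (SE 0.09), with its 4 probes from -0.15 to 0.03. Its ratios on arrays 1 to 4 were 0.29, -0.63, 0.04 and -0.30, with a dye coefficient of 0.31. These ratios were above 0 with ethanol in Cy5 and below 0 with ethanol in Cy3. The pore-forming TOMM40 was at -0.00 on a dim probe, above background in ethanol RNA on 3 arrays and in control RNA on 3. TOMM40L, its paralogue, was at 0.08. TOMM20L had 2 probes, neither above background in enough arrays, and no probe carried the symbol TOMM22, the central receptor.

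The small TIM chaperones, which escort membrane proteins across the intermembrane space, gave values of either sign. TIMM8B had ratios of 0.11, 0.09, 0.29 and 0.17 on arrays 1 to 4, all above 0, and a fitted value of 0.17 (SE 0.07, unadjusted p = 0.0661). Its partner-family member TIMM8A had -0.46, -0.20, -0.41 and 0.26 and a fitted value of -0.20 (SE 0.10), below 0 on 3 of the 4 arrays. TIMM9, of the same family, was at -0.03. Among the inner membrane translocases, TIMM22, the carrier translocase, was at -0.16, TIMM44, which tethers the import motor, at 0.12, and TIMM17A, a channel subunit, at 0.01. TIMM23 and TIMM50, also of the presequence translocase, had no probe under those symbols.

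The 5 genes of processing and quality control had a median of -0.07, with 2 above 0 and 3 below. This median was -0.01 without array 2, -0.02 without array 3 and -0.11 without array 1 or array 4. MIPEP, the mitochondrial intermediate peptidase, removes an octapeptide from a subset of imported proteins after the main processing peptidase has cut them. Its brightest probe had levels of 11.38, 11.16, 10.89 and 10.79 in the ethanol pools and of 11.96, 11.34, 11.63 and 11.24 in the control pools. Each ethanol pool was below the control pool of its array, with ranges that overlap. The mean log2 level was 11.05 ± 0.27 with ethanol and 11.54 ± 0.32 without (SD, n = 4 pools each).

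The MIPEP ratios on arrays 1 to 4 were -0.58, -0.18, -0.74 and -0.45. The fitted log2 ratio was -0.49 (SE 0.08, interval -0.69 to -0.29), a 1.40-fold difference, with an unadjusted p of 0.0012 and an adjusted p of 0.511 by limma. That p ranked 22 among 7344 genes, and 0.831% of the genes had a larger difference. Without 1 array the value was between -0.56 and -0.42.

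MIPEP had 7 measured probes, and their values differed with their brightness. The brightest (mean log2 intensity 11.3) had -0.49 and the next (8.92) -0.27, with ratios of -0.28, -0.13, -0.27 and -0.39 on arrays 1 to 4 and an unadjusted p of 0.0145. The 3 of middle brightness (8.53 to 7.58) had -0.11, -0.09 and -0.17, and the 2 dimmest (7.21 and 7.03) had 0.02 and -0.00. With an offset of 0 in the background correction the 7 values were -0.50, -0.30, -0.13, -0.13, -0.23, 0.04 and 0.03, in the same order of brightness. Averaged over its probes MIPEP stood at -0.16 with an unadjusted p of 0.0796.

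**Figure D3:**
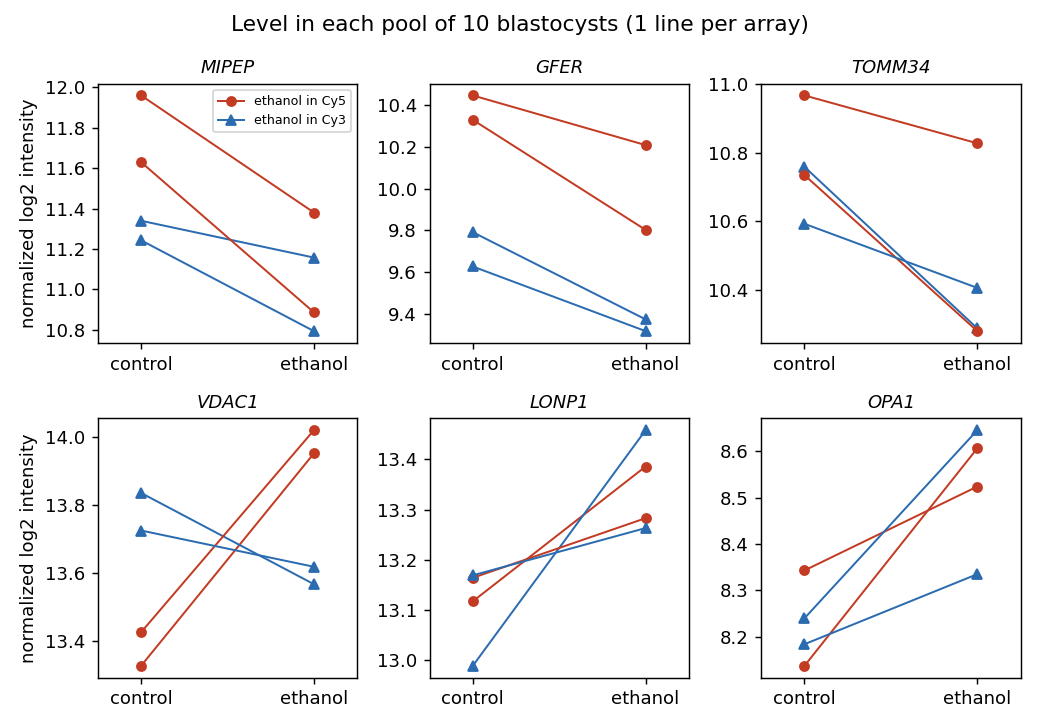
Normalized log2 intensity in the control and ethanol pools for the 6 genes at an unadjusted p under 0.05, with 1 line for each array and the dye orientation by colour and marker. All 4 lines descend for MIPEP, GFER and TOMM34 and all 4 ascend for LONP1 and OPA1, while the VDAC1 lines go both ways with the dye.

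LONP1, the ATP-dependent protease that degrades misfolded matrix proteins and also binds mitochondrial DNA, was read by 1 probe. Its levels were 13.39, 13.46, 13.28 and 13.26 in the ethanol pools and 13.12, 12.99, 13.16 and 13.17 in the control pools. Every ethanol pool was above every control pool, but how often this held over all named genes was not counted. The fit compares pools within an array only. The array ratios were 0.27, 0.47, 0.12 and 0.09, and the fitted value was 0.24 (SE 0.09, interval 0.02 to 0.46), a 1.18-fold difference with an unadjusted p of 0.0401 and an adjusted p of 0.668 by limma. Without array 2 the LONP1 value was 0.14 (unadjusted p = 0.202), and in 7 of the 14 other settings, among them without array 1 and without array 3, its unadjusted p was not under 0.05.

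CLPP, the proteolytic subunit of the other main matrix protease, had ratios of -0.16, -0.34, -0.11 and 0.12 and a fitted value of -0.12 (SE 0.10), with its second probe at -0.10. Without array 2 the CLPP value was -0.01. PHB, a scaffold of the inner membrane, was at -0.07, and PMPCB, the catalytic subunit of the main processing peptidase, at 0.05 with its 4 probes from -0.04 to 0.06. The PMPCB and MIPEP products act in sequence on the same proteins, and of these genes MIPEP alone reached an unadjusted p under 0.05, although the difference between them was not tested. No probe carried the symbols PMPCA or PHB2.

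The 4 genes of fusion and fission had a median of 0.07 (0.02 without array 3 and 0.12 without array 1), and OPA1 had the smallest p. Its product fuses inner membranes and keeps cristae closed. The brightest probe had levels of 8.52, 8.65, 8.61 and 8.34 in the ethanol pools and of 8.34, 8.24, 8.14 and 8.18 in the control pools. Each ethanol pool was above the control pool of its array, and the groups met only at the lowest ethanol pool and the highest control pool. The ratios on arrays 1 to 4 were 0.18, 0.41, 0.47 and 0.15, and the fitted value was 0.30 (SE 0.09, interval 0.08 to 0.52), a 1.23-fold difference with an unadjusted p of 0.0151 and an adjusted p of 0.569 by limma. The second OPA1 probe, dimmer and with a dye coefficient of 0.40, was at 0.03, and the average of both was 0.16. The unadjusted p of OPA1 was not under 0.05 in 3 of the 14 other settings, which were that average, without array 2 and without array 3.

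The fission genes were not at that threshold. DNM1L, the dynamin-related GTPase that constricts mitochondria, had ratios of -0.05, 0.42, 0.16 and 0.14 and a fitted value of 0.17 (SE 0.09), or 0.10 without array 2. A second DNM1L probe was at 0.18 (SE 0.08), with a dye coefficient of 0.32. Its ratios of 0.66, -0.13, 0.32 and -0.15 on arrays 1 to 4 changed sign with the dye. The remaining DNM1L probe was at -0.05 (SE 0.07), with a dye coefficient of -0.86. Its ratios, between -0.95 and 0.83, also followed the dye. MFF, the receptor that recruits DNM1L to the outer membrane, had ratios of -0.05, 0.09, -0.19 and -0.30 and a fitted value of -0.11 (SE 0.09). All 4 MFF probes lay between -0.11 and -0.07, and without array 4 the value of the brightest was -0.01. The outer membrane fusion gene MFN2 was at -0.03 and was above background in ethanol RNA on 2 arrays and in control RNA on 3, so its level was near the limit of detection. MFN1 and FIS1 had no probe under those symbols.

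**Figure D4:**
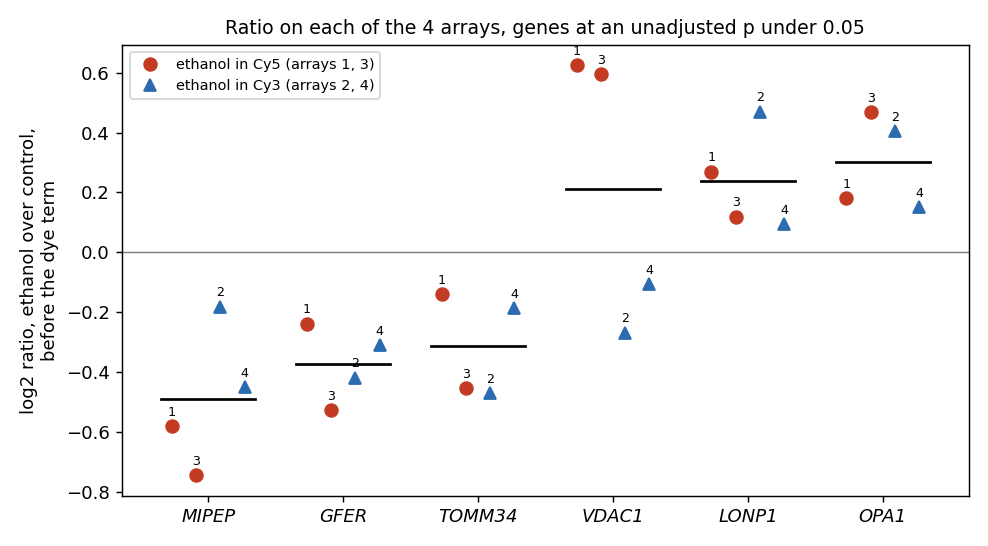
Log2 ratio of ethanol over control on each array before the dye term for the 6 genes at an unadjusted p under 0.05, with array numbers beside the points and the fitted value as a line. The 5 genes other than VDAC1 keep 1 sign on all 4 arrays, and VDAC1 is near 0.6 with ethanol in Cy5 and below 0 with ethanol in Cy3.

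Mitochondrial DNA upkeep had 0 of 4 genes at an unadjusted p under 0.05, with a median of 0.08 and a range from -0.15 to 0.12. SSBP1, which coats single-stranded mitochondrial DNA, had ratios of -0.26, -0.28, -0.16 and 0.11 and a fitted value of -0.15 (SE 0.09, unadjusted p = 0.157), which was -0.05 without array 2 and -0.24 without array 4. TFAM, which packages mitochondrial DNA and starts its transcription, had 0.27, -0.41, 0.53 and -0.05, positive with ethanol in Cy5 and negative with ethanol in Cy3, and a fitted value of 0.08 (SE 0.09). TFB1M, a methyltransferase of the mitochondrial ribosomal RNA, had 0.46, 0.13, -0.24 and 0.12 and a fitted value of 0.12 (SE 0.12), which was -0.06 without array 1 and 0.29 without array 3. The catalytic subunit of the mitochondrial DNA polymerase, POLG, was at 0.07, and all 4 of its probes were above 0, up to 0.21. All 5 TFB1M probes were also at or above 0, from 0.00 to 0.16. TFB2M, POLG2 and POLRMT had no probe under those symbols.

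The 3 remaining genes were the channels VDAC1 and VDAC2, which pass metabolites across the outer membrane, and TUFM, the mitochondrial translation elongation factor. VDAC1 had levels of 13.95, 13.57, 14.02 and 13.62 in the ethanol pools and 13.33, 13.84, 13.43 and 13.73 in the control pools, so the groups overlapped and the order within an array followed the dye. Its ratios were 0.63 and 0.59 with ethanol in Cy5 and -0.27 and -0.11 with ethanol in Cy3. With the dye term, whose coefficient was 0.40, the fitted value was 0.21 (SE 0.07, interval 0.03 to 0.39), a 1.16-fold difference with an unadjusted p of 0.0271 and an adjusted p of 0.627 by limma. The dye coefficient was thus larger than the difference between treatments, and without a dye term the unadjusted p was 0.271. In 7 of the 14 other settings, among them without array 1, array 3 or array 4, the p of VDAC1 was not under 0.05.

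VDAC2 also followed the dye in part, with ratios of 0.42, 0.07, 0.54 and -0.42 and a fitted value of 0.15 (SE 0.10), or 0.03 without array 2. TUFM had ratios of 0.11, -0.04, -0.31 and 0.14 and a fitted value of -0.03 (SE 0.10), with a second probe at -0.13. TSFM and GFM1, the other listed translation factors, had no probe under those symbols.

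Over all 63 probes of the group, 9 (14.3%) had an unadjusted p under 0.05, against 7.27% of all measured probes, 3 higher and 6 lower, and the median was -0.00. The 6 lower probes were the 3 of GFER, 2 of MIPEP and 1 of TOMM34, so they stand for 3 genes. Of the 13 genes with more than 1 measured probe, 5 (38.5%) had probes of differing sign, against 968 of 2055 (47.1%) of all such named genes.

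**Figure D5:**
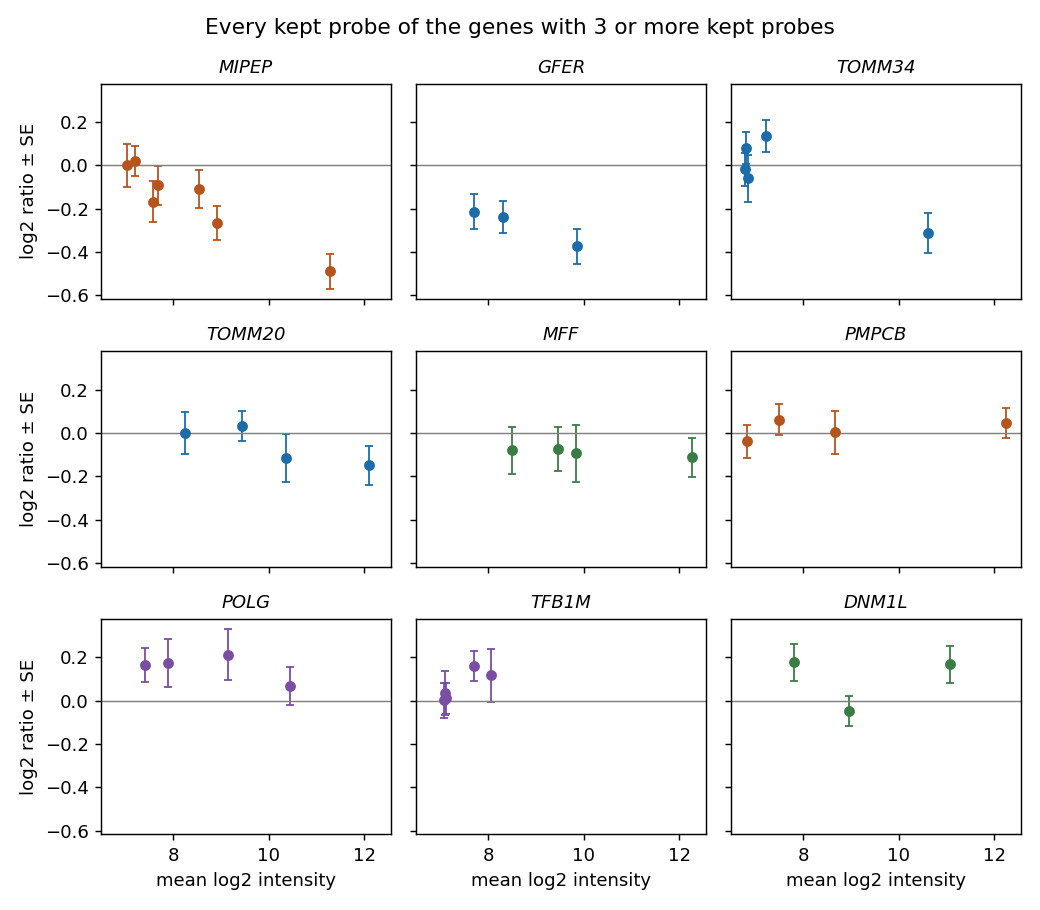
Fitted log2 ratio of ethanol over control ± SE against mean log2 intensity for every measured probe of the 9 genes with 3 or more. The brightest MIPEP and TOMM34 probes lie apart from the dimmer ones, the 3 GFER probes and 4 MFF probes all lie below 0, and the 4 POLG probes all lie above 0.

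Further genes of the same pathways were taken from 4 lists that hold 84 symbols, of which 49 were measured. At an unadjusted p under 0.05 there were 5 (10.2%), 2 higher and 3 lower, close to the 9.03% of all named genes, and the median was 0.02. None passed the adjusted threshold of limma.

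The import partners had 1 of 14 genes at that p and a median of -0.02. ROMO1, a small inner membrane protein, was at -0.24 (SE 0.09, unadjusted p = 0.0418), with ratios of 0.23 and 0.28 on arrays 1 and 3 and -0.94 and -0.53 on arrays 2 and 4, and a dye coefficient of 0.49. HSPD1, the matrix chaperonin, was at 0.22 (SE 0.12) with 3 probes from 0.19 to 0.22, and CHCHD10 was at -0.15. HSPD1 was at 0.09 without array 3 and at 0.36 without array 1, and ROMO1 was at -0.13 without array 2. CHCHD4, the receptor that the GFER product reoxidises, was named after its value was seen, and was at -0.08 (SE 0.11), with ratios of -0.07, 0.09, 0.16 and -0.49.

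In processing and quality control none of 12 further genes reached that p, and the median was 0.03. TRAP1, a matrix chaperone of the HSP90 family, was at -0.19, and OMA1, the stress-activated protease that cleaves the OPA1 product, at 0.15 (SE 0.08). CLPX, the unfoldase that works with CLPP, had a fitted value of 1.12 (SE 0.63) that came from array 1, where the ratio was 4.32, and it was 0.06 without that array. In the Cy3 channel of array 1 the CLPX spot had a signal of 1497 and a local background of 1619, against backgrounds of 19, 18 and 20 on the other arrays.

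The further genes of dynamics and shape had 2 of 9 at that p, both lower, and a median of 0.02. USP30, a deubiquitinase that opposes removal of mitochondria, had ratios of -0.17, -0.20, -0.25 and -0.16 and a fitted value of -0.20 (SE 0.07, unadjusted p = 0.0309), the same sign on all 4 arrays. MUL1, an outer membrane ubiquitin ligase, was at -0.42 (SE 0.15, unadjusted p = 0.0329) with ratios from -0.82 on array 2 to -0.01 on array 4, and its other probe was at -0.10. Without array 2 the MUL1 value was -0.21 (unadjusted p = 0.131), without array 3 its unadjusted p was 0.132, and USP30 was above 0.05 with any array left out. CHCHD3, which encodes a subunit of the complex that shapes cristae, was at 0.14 with its 5 probes from -0.20 to 0.14.

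DNA upkeep and expression had 2 of 14 further genes at that p, both higher, and a median of 0.01. PNPT1, an RNA-processing exonuclease of mitochondria, had ratios of 0.05, 0.42, 0.36 and 0.40 and a fitted value of 0.31 (SE 0.08, unadjusted p = 0.0099), above 0 on all 4 arrays. The release factor gene MTRF1 was at 0.27 (SE 0.10, unadjusted p = 0.0449), with -0.18 on array 1 and 0.74 on array 2, and was at 0.16 without array 2. The value of PNPT1 without array 3 was 0.23 (unadjusted p = 0.0558). GFM2, a ribosome recycling factor, was at 0.18.

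The blastocyst label was set against marker genes. Of 13 trophectoderm symbols 11 were measured, among them CDX2, GATA3, KRT8 and KRT18, and of 7 inner cell mass symbols 3, among them POU5F1, while probes of SOX2 and SALL4 were not above background. The median log2 ratio was -0.15 over the 11 trophectoderm markers, from -0.38 to 0.08, with 3 at an unadjusted p under 0.05. It was -0.26 over the 3 inner cell mass markers, from -0.27 to -0.06, with 1 at that p. Of all named genes 9.03% were at that p. The log2 of the summed trophectoderm signal was 16.3 to 17.5 in ethanol pools and 16.6 to 17.4 in control pools, and that of the inner cell mass markers 10.8 to 11.1 and 11.0 to 11.3. The 5 hypoblast markers measured had a median of 0.09, from -0.05 to 0.27, with none at that p. Of 12 cumulus and granulosa cell symbols 9 were measured and none was at that p, with a median of 0.03. Of 6 blood cell symbols 3 were also above background (PTPRC, CD3E and CD79A), and of 6 sperm symbols 1 (AKAP4), with 0 at that p. The log2 of the summed blood cell signal was 8.34 to 8.49 in ethanol pools and 8.31 to 8.46 in control pools. AKAP4 was at 6.56 to 6.77 and 6.39 to 6.88. Being above background thus does not by itself show that a cell type was present. The part of these markers in the values of MIPEP, GFER, TOMM34, LONP1, OPA1 and VDAC1 was not tested.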

How the data were processed

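Each deposited scanner file gives, per the file headers, the raw intensity of every spot and of its surroundings in Cy3 and Cy5. The series table deposited by the authors gives log2 ratios, whose normalization is not given in the sources used here. Set against loess-normalized ratios of the scanner values, its columns correlated at 0.990, 0.997, 0.994 and 0.985 for arrays 1 to 4, as log2 of Cy5 over Cy3, with medians of -0.0138, -9.35e-05, 0.00378 and 0.00108. It was used as an alternative. A further 4 per-array columns that match no single label were left out.

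The fits used limma 3.58.1 in R 4.3.3, and figures were drawn with matplotlib 3.10.9. Median pixel intensities were corrected by normexp with an offset of 50 and normalized by loess within arrays, with weight 0 for 1426 control and other non-probe spots. A kept probe was brighter than 95% of the array's 153 negative-control spots in the ethanol RNA of at least 3 arrays or in the control RNA of at least 3, which held for 25899 of 43794 probes (59.1%). The Cy3 channel had 70.4% to 73.5% of probes above background, the Cy5 channel 45.3% to 57.3%, and no array had over 2 saturated spots. The model had an ethanol and a dye coefficient, with 2 residual degrees of freedom (5.74 in total after moderation). Array number limits the precision. Levels per pool were put on a common scale by Aquantile normalization after loess, and pools correlated at 0.966 to 0.991. Levels are not compared between probes.

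Symbols come from the array's annotation, with 1 symbol for 18121 probes and none for 25673, and all 29 measured symbols are also in the Sscrofa11.1 RefSeq table. No batch was tested, because the sources used here give neither slide nor scan date. The members and lists were chosen with earlier results of these data known. The rule for named genes gives per-array values for the 3 genes of smallest p in each role, which include MIPEP and OPA1, and names up to 3 of smallest p from each further list. Array ratios of TOMM5, TIMM8A, TOMM20 and CHCHD4 were added after their values were seen, and other members are given by their fitted value. The alternatives covered background correction, pixel summary, normalization, the filter, the dye term, the variance model, the authors' values, averaging a gene's probes and leaving out each array. The scripts were tested on simulated data.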

Additional observations from a re-analysis of the deposited data

Results flagged for a closer look

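The ratio on each array before the dye term was searched for an array far from the other 3, over 78 genes, of which 29 belong to the group described and 49 to the further lists. Chance marks about 1 in 20 such groups of values when all 4 come from 1 distribution, and here 0 of the 29 and 1 of the 49 were marked. In these ratios a dye effect separates arrays 1 and 3 from arrays 2 and 4. A single array apart from the others is then harder to mark, so the rate of 1 in 20 is a guide only. CLPX had a log2 ratio of 4.32 on array 1 against -0.06, 0.09 and 0.12 on arrays 2, 3 and 4, where the gap to the nearest other array is 0.960 of the whole range. The fitted value of 1.12 was 0.06 when array 1 was left out, and it was 2.27 at an offset of 0 and 1.55 from the authors' deposited table. The local background of that spot in Cy3, which held control RNA, was 1619, above its signal of 1497, and plain subtraction of the background gave no fitted value. A second, dimmer CLPX probe had 0.70 on array 1 and a fitted value of -0.03.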

How the results depend on the processing

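Under each of the 14 alternatives limma called 0 probes at an adjusted p under 0.05, with 623 to 2704 at an unadjusted p under 0.05 (the lowest count is over genes with probes averaged, the highest over unfiltered probes). The sign was kept in 372 of 377 pairs of a named gene and an alternative. Without the dye term, with either other filter on dim probes and with the other variance model, the fitted ratios were identical to the main ones. With probes averaged, the same held for genes with 1 measured probe. Those pairs say nothing about stability, and the rest reuse the same arrays. The count of 6 genes at an unadjusted p under 0.05 was 3 with a gene's probes averaged (GFER, LONP1 and VDAC1), or 10.3% against 8.48% of all named genes. LONP1 and VDAC1 have 1 measured probe each, so averaging could not change their ratios. Of GFER, MIPEP, OPA1 and TOMM34, which have more, GFER alone stayed at that p. With 1 array left out the count was 3 to 7, or 10.3% to 24.1% against 6.50% to 10.6% of all named genes. It was 3 without array 2 (GFER, MIPEP and VDAC1), 10.3% against 6.50%. Without array 3 it was also 3 (GFER, MIPEP and TFB1M), 10.3% against 9.10%. GFER and MIPEP stayed at that p with any array left out. In the other alternatives the count was 4 to 7, or 13.8% to 23.3% against 4.30% to 9.76% of all named genes. The count of 5 among the further pathway genes was 3 with an offset of 0, 2 without the dye term and 3 with an intensity trend and robust variance. With 1 array left out it was 1 to 5. The 2 genes without array 2 were PNPT1 and DNAJC15, and the 1 without array 3 was CLPX (2.17), so none of the 5 was at that p without array 3. The median of mitochondrial DNA upkeep was 0.0048 to 0.0577 and that of the translation factors and channels 0.0281 to 0.182 with 1 array left out. In the same refits TFB1M was -0.0578 (without array 1) to 0.292, TUFM -0.133 to 0.0763 (without array 3; 0.0176 without array 2) and TFAM -0.0041 (without array 4) to 0.173. CHCHD3 was -0.0654 with its probes averaged. The causes of these shifts were not tested, apart from the probes' own differences in the averaged values. Dim probes limit MFN2 (mean log2 intensity 6.93) and TOMM40 (7.06), and TOMM20L was not measured. The probes of CLPP (7.30 and 7.15), TOMM40L (7.22) and the second of OPA1 (6.91) were about as dim, though above background on all 4 arrays. The dimmest MIPEP probe (7.03) was above background in ethanol RNA on 3 arrays and in control RNA on 3. The fit is itself paired, since each array's ratio sets an ethanol pool against the control pool of the same array, so no further block was fitted.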
